A study of Mus musculus with 12 samples.

Results

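The 10 genes described here encode the immediate early transcription factors of the AP-1 and EGR families: the FOS genes Fos, Fosb and Fosl2, the JUN genes Jun, Junb and Jund, the zinc finger genes Egr1, Egr2 and Egr3, and Atf3. They were chosen by name from 49568 genes in a table of raw read counts, and all 10 passed the filter on low counts that left 14712 genes for testing. RNA was sequenced from cardiomyocytes of male mice in 12 libraries, 3 in each of 4 groups. The study asked what the myocardin-related transcription factors (MRTFs), cofactors of serum response factor (SRF), do in cardiomyocytes of a pressure-loaded heart.

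Control mice carried alphaMHC-MerCreMre/+, a tamoxifen-inducible Cre recombinase driven by the cardiomyocyte promoter of alpha myosin heavy chain. Mice of the dKO groups were MHC-MerCreMre/+; Mrtf-a-/-; Mrtf-bflox/flox, so that MRTF-A was missing from every cell and MRTF-B was to be removed from cardiomyocytes. All 4 groups, controls included, were given tamoxifen at the age of 8 weeks (30 ug/g daily, 3 injections). Each genotype then had either trans-aortic constriction (TAC), which narrows the aorta and raises the pressure the left ventricle works against, or sham surgery. Surgery was at 10 weeks by the treatment protocol, whereas the series text gives 8 weeks, and the hearts were taken 7 days later, at 11 weeks. Cells were freed by Langendorff perfusion, settled for 10 min at 37 °C to enrich cardiomyocytes, returned to calcium in steps and put into Trizol. The labels do not say whether the 3 libraries of a group came from separate animals or from pools, so the p-values measure the spread between these libraries, which may be technical.

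AP-1 is a pair of proteins, a JUN protein with a FOS or ATF protein or with another JUN, held together by leucine zippers and bound to DNA sites such as TGANTCA and TGACGTCA. EGR proteins bind GC-rich sites such as GCGNGGGCG through zinc fingers. Transcription of these genes starts without new protein synthesis after growth factors, stretch, calcium or stress, and their RNAs last only a short time. SRF on CArG boxes, assisted by ELK factors after MAP kinase signalling or by MRTFs after actin assembly, is the known switch for several of them. In the heart they are known for a brief rise soon after the load increases, and digestion of tissue into single cells can also switch them on.

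Total counts per library lay between 20082000 and 29675212, so 3 counts, taken as the floor, corresponded to 0.0935 to 0.184 CPM (read counts scaled to library size, here by the TMM method), for counting error only. The targeted genes, named Mkl1 (MRTF-A) and Mkl2 (MRTF-B) in the table, lay at 7.59 to 16 and 30.1 to 44.1 CPM in the control libraries and at 2.15 to 3.2 and 15.2 to 28.1 CPM in the dKO libraries, with no overlap for either gene. All 10 cardiomyocyte markers checked were abundant, with summed levels of 49080 to 111100 CPM. Markers of fibroblasts, endothelial cells, pericytes and smooth muscle, and macrophages were present as well, 10 of 10 in each list and none at 0 in any library, with sums of 960.3 to 8295, 893.1 to 1808, 3227 to 5611 and 163.2 to 703.7 CPM. The blood and lymphocyte sum was 36.9 to 102.2 CPM in control and 4.301 to 26.22 CPM in dKO libraries, without overlap, with markers such as Cd3e and S100a8 at 0 in some libraries, and its part in the dKO comparisons was not tested. In RNA of a whole preparation, fewer cells of a type and less RNA per cell cannot be told apart. Libraries dKO sham 1 and dKO TAC 2 stood apart, with 16.51% and 15.32% of their counts on mitochondrially encoded genes against 23.16% to 32.57% in the other 10.

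Promoters of 8 of the 10 genes were found in a table of RefSeq promoters for GRCm38.p6, which spans 250 bases before to 50 bases after each start site. Egr1 and Egr3 were not among them, so their promoters were not searched. The 120 bases before the start site are shown for 4 of them because each holds a motif tied to the biology of these genes. The motif is in capitals: the TATA box TATAAA in Fos, an EGR site (GCGNGGGCG) in Fosb and in Fosl2, and a CArG box in Egr2, whose start site shown is the third of 5 in order of position. All 4 are given 5′ to 3′.
Fos, chr12:85473770-85473889, plus strand: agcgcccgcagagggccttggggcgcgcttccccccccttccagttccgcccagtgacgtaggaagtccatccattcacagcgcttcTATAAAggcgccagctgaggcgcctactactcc
Fosb, chr7:19310046-19310165, minus strand: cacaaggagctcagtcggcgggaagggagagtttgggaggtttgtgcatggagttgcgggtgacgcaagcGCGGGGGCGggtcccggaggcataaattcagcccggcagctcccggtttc
Fosl2, chr5:32136352-32136471, plus strand: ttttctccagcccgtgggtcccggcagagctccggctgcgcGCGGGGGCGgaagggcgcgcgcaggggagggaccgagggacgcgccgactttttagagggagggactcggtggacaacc
Egr2, chr10:67537749-67537868, plus strand: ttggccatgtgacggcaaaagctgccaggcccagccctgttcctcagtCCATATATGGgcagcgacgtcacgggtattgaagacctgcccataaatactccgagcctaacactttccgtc

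The CArG box was searched as CC, then 6 letters that are A or T, then GG. It was found in 1 of the 8 genes, Egr2, and in 1.63% of 32851 promoters of the same length, or 1.34% of 13686 promoters of tested genes. Egr2 held 2 distinct boxes, 1 before its second start site and 1 shared by the overlapping promoters of the last 3, and the shared box lay 72 to 63 bases before the start shown, at chr10:67537797-67537806. GCGNGGGCG lay 50 to 42 bases before the start of Fosb and 79 to 71 bases before that of Fosl2, and was in 5.55% of all promoters and 10.2% of those of tested genes. TATAAA lay 33 to 28 bases before the start of Fos and from base 1 to 6 counted from that of Junb, and was in 13.6% of all promoters and 7.6% of those of tested genes. The 2 AP-1 sites, TGANTCA and TGACGTCA, were in no promoter of the 8 genes, against 7.81% and 1.79% of all promoters and 5.33% and 2.89% of those of tested genes. Only exact matches were counted, so variants such as TGACATCA, which the Jun promoter holds, were not. Both strands were searched for each motif. The CArG pattern reads alike on both strands, so each box matched on both, and within a promoter no match overlapped one of another motif. A match, or the lack of one, describes the letters in this window only.

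On GRCm38 in GENCODE release 21, the FOS genes lie at chr12:85473890-85477273 (Fos, plus strand), chr7:19302696-19310051 (Fosb, minus) and chr5:32135801-32157842 (Fosl2, plus). The JUN genes lie at chr4:95049034-95052222 (Jun, minus), chr8:84974484-84978718 (Junb, minus) and chr8:70698949-70700616 (Jund, plus), and Jun and Jund each consist of 1 exon. The promoter window searched for Jund, chr8:70697489-70697788, ends before the Jund gene begins. Egr1 is at chr18:34859823-34864984, Egr2 at chr10:67535475-67542188 and Egr3 at chr14:70077203-70082614, all on the plus strand, and Atf3 is at chr1:191170296-191218039 on the minus strand. Exons of 3 JUN genes are overlapped from the opposite strand: Jun by Junos over 232 bases, Junb by Prdx2 over 173 bases and Jund by Gm11175 over 877 bases. The mean levels of these partners were 0.726, 338 and 1.389 CPM. Whether the counting used strand is not stated in the labels or notes, so how reads were split between these pairs is uncertain, above all for Junb and Prdx2. Messages of these genes are known to be unstable, and the AU-rich nonamer TTATTTATT, a mark of unstable messages, was in the 3′ untranslated part of Fos and Fosl2, 2 of the 10 genes, against 8.28% of 13070 tested genes. The shorter stretch ATTTA, which the nonamer holds, occurred 0.43 times per kilobase of this part in Fosb. In the rest of the 10 it occurred 1.64 (Egr1) to 4.91 (Fos) times, against a median of 1.31 over the tested genes.

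Compared per exon length, Fos was the most abundant of the 10, with a mean of 166.7 reads per kilobase of exon after scaling to library size (RPKM) over the 12 libraries. Jun at 138.0, Egr1 at 114.8, Atf3 at 93.72, Jund at 86.8 and Junb at 84.09 RPKM followed. Neighbours in this order were close: Fos was above Jun in 9 of 12 libraries, Egr1 above Atf3 in 6, and Jund above Junb in 7. A gap then separated Junb from Fosb at 10.47 RPKM, and Junb was higher in 12 of 12 libraries. Fosl2 at 5.107, Egr2 at 1.458 and Egr3 at 0.471 RPKM were the lowest, each of them below the gene before it in 9, 12 and 12 of the 12 libraries. Fos made up 85.6% to 95.5% of the FOS family per length and Egr1 96.4% to 99.4% of the 3 EGR genes, whereas the JUN family was mixed, with Jun at 32.7% to 55.5%.

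None of the 10 genes was called in any comparison by the quasi-likelihood test of edgeR at a threshold of 0.05 on p adjusted by Benjamini-Hochberg over 14712 genes. In control mice the levels of most of them differed several-fold between libraries of 1 group, and in dKO mice Jun, Junb, Jund and Egr1 had lower means after TAC than after sham without passing the threshold. The values follow by family, in the order replicate 1, 2 and 3, in CPM.

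**Figure D1:**
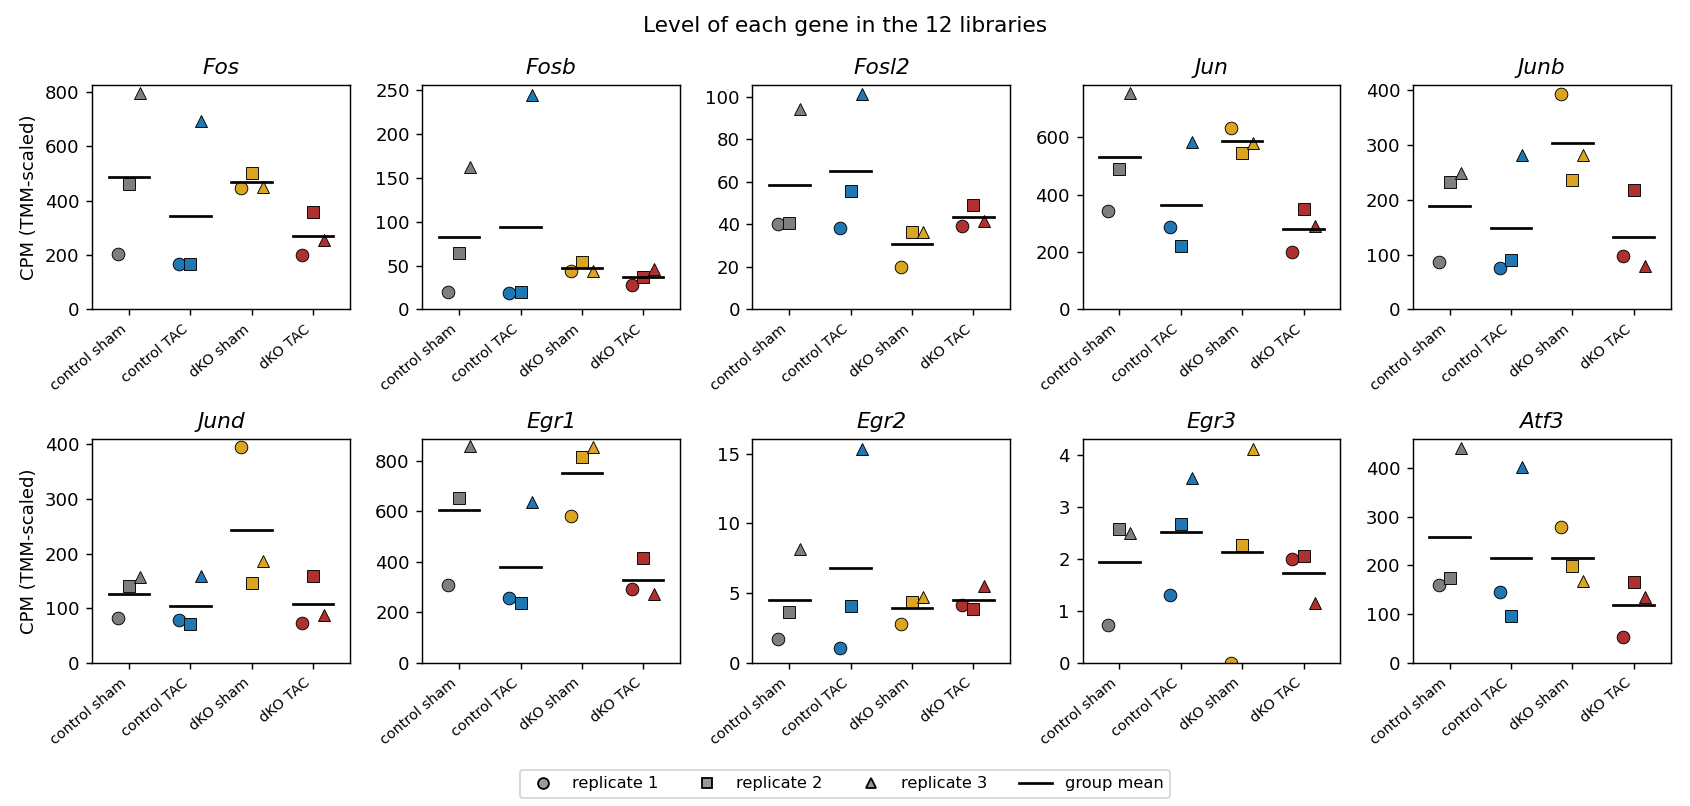
Level of each of the 10 genes in CPM (vertical axes start at 0) in the 12 libraries, by group; symbols mark the replicate number and lines the group mean. For Fos, control sham 3 at 795.2 and control TAC 3 at 693.9 CPM stand above the other 10 libraries, and the 3 dKO sham libraries lie together at 448.7 to 504.1 CPM.

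Fos, the founding partner of JUN proteins in AP-1, stood at 202.3, 462.7 and 795.2 CPM in control sham, then at 166.4, 167.4 and 693.9 CPM in control TAC. In dKO sham it was 448.7, 504.1 and 449.8 CPM, and in dKO TAC 199.4, 360.5 and 255.7 CPM. The control groups overlapped fully, while every dKO TAC library lay below every dKO sham library. The TAC effect on Fos was -0.51 ± 0.56 (log2 change ± SE) in control and -0.78 ± 0.56 in dKO, with adjusted p = 0.74 and 0.378 by edgeR with Benjamini-Hochberg adjustment. Its dKO effect was -0.06 ± 0.55 after sham and -0.33 ± 0.56 after TAC. The 95% interval after sham, from -1.26 to 1.15, held changes of more than a doubling in either direction.

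Fosb, a FOS protein with strong activation domains, ranged more widely: 20.38, 63.91 and 163.1 CPM in control sham, then 18.5, 20.07 and 245 CPM in control TAC. The dKO libraries were confined to 43.81, 54.06 and 44.27 CPM after sham and 28.31, 37.04 and 46.16 CPM after TAC. Both control groups thus reached below and above all 6 dKO libraries. Fosb's dKO effect after TAC was -1.35 ± 0.88, the lowest estimate of the 10 genes in that comparison (adjusted p = 0.742 by edgeR with Benjamini-Hochberg adjustment), and it turned to 0.96 when control TAC replicate 3 was left out.

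Fosl2 (Fra-2), a FOS protein without a strong activation domain that is expressed in unstimulated heart, had 40.35, 40.84 and 94.38 CPM in control sham, then 38.12, 55.51 and 101.5 CPM in control TAC. After sham the dKO libraries were lower, at 19.72, 36.33 and 36.22 CPM, and did not overlap with control sham. After TAC they had 39.2, 49.32 and 41.77 CPM, all above dKO sham. The dKO effect after sham was -0.93 ± 0.40 with a 95% interval of -1.80 to -0.06, and adjusted p = 0.507 by edgeR with Benjamini-Hochberg adjustment. Fosl2 was the one gene of the 10 under an unadjusted p of 0.05 there, against 9.25% of all genes tested. Without control sham replicate 3 its estimate was -0.40.

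Jun, the AP-1 subunit that binds DNA with any FOS protein and is activated by JNK, had 344.8, 490.6 and 755.1 CPM in control sham, then 286.7, 222.3 and 583.6 CPM in control TAC. It was steady in dKO sham, at 632.3, 545.6 and 580.9 CPM, and lower in dKO TAC, at 200.2, 349.3 and 290.9 CPM. These dKO groups did not overlap. The TAC effect in dKO was -1.07 ± 0.37, with a 95% interval of -1.87 to -0.26 and adjusted p = 0.0926 by edgeR with Benjamini-Hochberg adjustment. In control it was -0.54 ± 0.37, and the difference between the genotypes, -0.52 ± 0.52, had adjusted p = 0.849 in the same test with Benjamini-Hochberg adjustment.

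Junb, a JUN protein with weaker activating power that can restrain Jun, had 86.32, 233.5 and 248.9 CPM in control sham, then 75.45, 89.45 and 281.8 CPM in control TAC. In dKO it went from 394.1, 236 and 281.5 CPM after sham to 97.21, 219 and 78.69 CPM after TAC, again with no overlap. Its TAC effect in dKO was -1.21 ± 0.55 (adjusted p = 0.18, edgeR with Benjamini-Hochberg adjustment).

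Jund, the JUN gene that many resting cells express steadily, had 82.07, 139.9 and 157.4 CPM in control sham, then 78.63, 71.95 and 159.5 CPM in control TAC. In dKO sham 1 it reached 394 CPM, against 146.8 and 185.9 CPM in the other two, and dKO TAC had 73.37, 159.5 and 88.34 CPM. The dKO groups overlapped, because dKO TAC 2 was above dKO sham 2. Jund's TAC effect in dKO was -1.18 ± 0.44 (adjusted p = 0.114, edgeR with Benjamini-Hochberg adjustment) and moved to -0.64 without dKO sham replicate 1. In that library, 1 of the 2 with a low mitochondrial share, Jund was 39% of the JUN family per length, against 21.5% to 31.8% in the other 11.

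Egr1, the main EGR factor of this tissue by level, had 307.6, 651 and 856.1 CPM in control sham, then 256.9, 237.9 and 637.6 CPM in control TAC. In dKO it was 579.3, 815.1 and 854.5 CPM after sham and 293.3, 415.7 and 273.3 CPM after TAC, with no overlap. The TAC effect was -0.68 ± 0.42 in control and -1.20 ± 0.42 in dKO, with adjusted p = 0.462 and 0.0972 by edgeR with Benjamini-Hochberg adjustment. The difference between them was -0.52 ± 0.59, with a 95% interval of -1.80 to 0.77.

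Egr2 and Egr3, known from Schwann cells and lymphocytes, were the lowest of the 10. Egr2 had 1.736, 3.639 and 8.184 CPM in control sham, and control TAC ranged from 1.048 and 4.056 to 15.37 CPM. The dKO values of Egr2 were 2.765, 4.353 and 4.743 CPM after sham, then 4.127, 3.866 and 5.544 CPM after TAC. Egr3 lay at 0.7312, 2.568 and 2.492 CPM in control sham, and TAC libraries had 1.311, 2.669 and 3.557 CPM (control) or 1.996, 2.058 and 1.15 CPM (dKO). In dKO sham Egr3 had 2.266 and 4.103 CPM in replicates 2 and 3 and no count in replicate 1, where 3 counts would be 0.184 CPM. For both genes the groups overlapped in every comparison, and the SE of their log2 changes was 0.727 or more.

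Atf3, a stress-induced factor that pairs with JUN proteins and represses many promoters, had 160.4, 174.3 and 441 CPM in control sham, then 146.3, 97.28 and 401 CPM in control TAC. In dKO it was 279.5, 199.3 and 168.5 CPM after sham and 53.41, 165.8 and 135.5 CPM after TAC. The dKO groups did not overlap, by a narrow margin between 165.8 and 168.5 CPM. Atf3's TAC effect in dKO was -0.87 ± 0.56 (adjusted p = 0.334, edgeR with Benjamini-Hochberg adjustment), and its dKO effect after TAC was -0.86 ± 0.56.

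**Figure D2:**
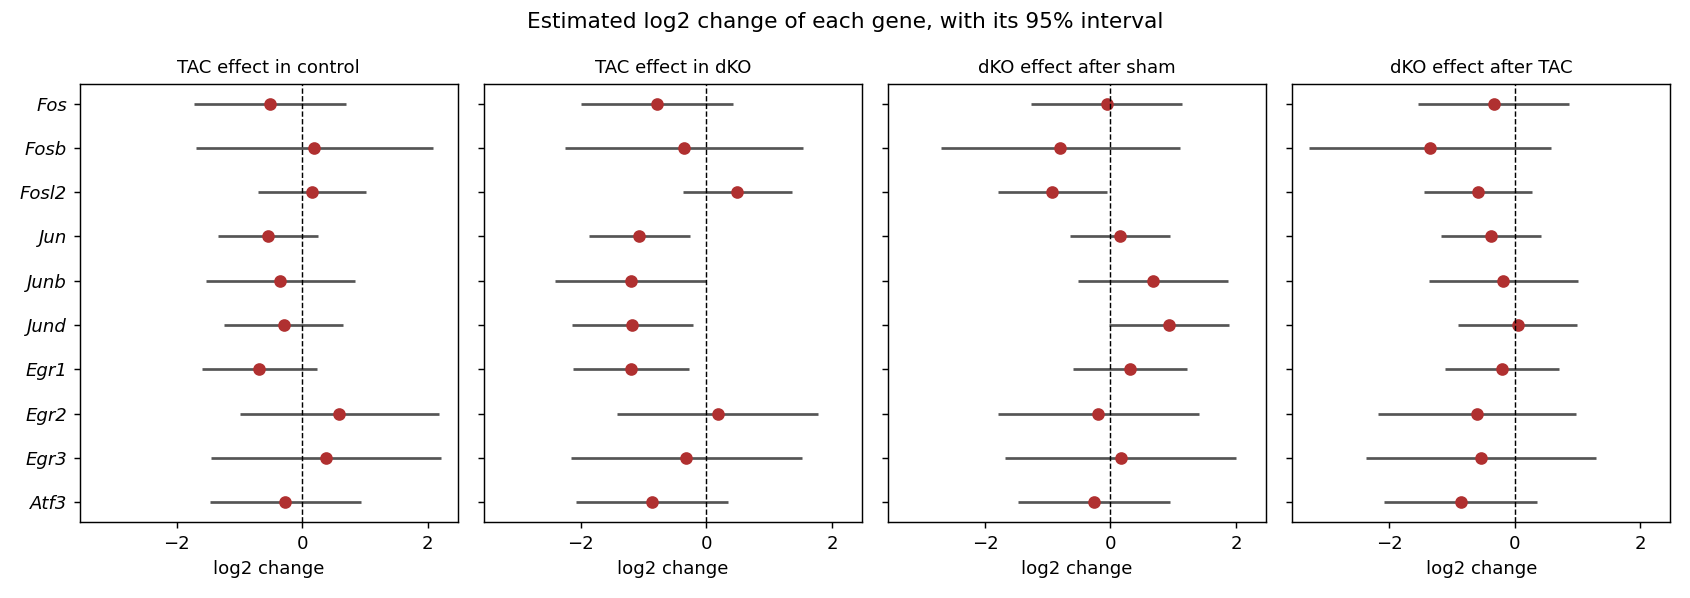
Estimated log2 change of each gene (points) with its 95% interval (bars) in the 4 comparisons of groups; the dashed line marks no change. The intervals of Jun, Junb, Jund and Egr1 for TAC in dKO lie below 0, as does that of Fosl2 for dKO after sham, and none of these passed the adjusted threshold.

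For TAC in control mice, 0 of the 10 genes were called, against 2.25% of all genes tested (331 genes: 280 higher, 51 lower). None was under an unadjusted p of 0.05 either, against 16.9% of all, and DESeq2 and limma-voom called none. The 2 groups overlapped for all 10 genes, whereas 21.8% of all genes did not overlap. Of the 10 log2 changes 4 were above 0, and their median was -0.28 against 0.00 over all genes. Control TAC replicate 3 bore on this: without it 5 of the 10 had an unadjusted p under 0.05, against 1690 of 14905 genes, and none was called (edgeR adjusted p of 0.1919 to 0.4003 with Benjamini-Hochberg adjustment). The 5 were Fos, Fosb, Jun, Junb and Egr1, with log2 changes of -1.54, -2.09, -1.055, -1.20 and -1.29 there. The number of genes called over the whole table rested on single libraries: it was 2 without control sham 1, 3 without control sham 3, 14 without control TAC 2, 109 without control TAC 3 and 1130 without control TAC 1.

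For TAC in dKO mice, 0 of the 10 were called, against 7.39% of all genes (1087 genes: 618 higher, 469 lower). Jun, Junb, Jund and Egr1, 4 of the 10, were under an unadjusted p of 0.05, against 27.6% of all. That count was 2 without dKO sham 1 and 1 without dKO TAC 1 or dKO TAC 3. Fos, Jun, Junb, Egr1 and Atf3 were lower without overlap, 5 of 10 against 14.5% of all genes, and Fosl2 was higher without overlap, 1 of 10 against 16.2%. The median log2 change of the 10 was -0.83, against -0.01 over all genes, and 8 were below 0. DESeq2 called 3 of the 10 lower, with adjusted p (Benjamini-Hochberg) of 0.031 for Jun, 0.0456 for Jund and 0.0309 for Egr1, and edgeR without the filter on low counts called the same 3 genes, whereas limma-voom called 0. Over all genes DESeq2 called 2381 of 14712 (1240 of them lower). EdgeR without that filter called 1545 of 28224 (705 lower), and limma-voom 938 of 14712 (393 lower). Without control TAC replicate 3, Jun alone was called (log2 change -1.06, edgeR adjusted p = 0.04999 with Benjamini-Hochberg adjustment). The whole-table count fell to 210 without dKO TAC 1, 306 without dKO TAC 3 and 661 without dKO sham 2.

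When dKO sham 1 and dKO TAC 2 were both set aside, 7 of the 10 genes were lower after TAC without overlap among 2 libraries a group, against 34.9% of all genes. These were Fos, Jun, Junb, Jund, Egr1, Egr3 and Atf3. Fosl2 was higher without overlap, 1 of the 10 against 34.9% of all genes. Fibroblast markers moved with the surgery in dKO mice: their sum was 1073 to 1487 CPM after sham and 2625 to 3012 CPM after TAC, with 4 of 10 markers called higher and 1 lower by the edgeR test. Their part in the levels of the 10 genes was not tested.

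Loss of the MRTFs had no called effect on the 10 genes. After sham, 0 of 10 were called against 0.068% of all genes (10 genes), 1 of 10 was lower without overlap (Fosl2) against 9.42% of all, and the median log2 change was 0.04 against 0.02 over all genes. After TAC, 0 of 10 were called against 0.428% of all (63 genes), all 10 overlapped against 17.6% of all that did not, and 9 of the 10 estimates were below 0, with a median of -0.46 against -0.03. At an unadjusted p under 0.05 there were 0 of the 10 after TAC, against 8.87% of all genes, and neither DESeq2 nor limma-voom called any of the 10 in either comparison. Of these 9, the estimates of Fos, Fosb, Jun, Junb, Egr1 and Egr2 turned positive when control TAC replicate 3 was left out, to 0.72, 0.96, 0.15, 0.69, 0.42 and 0.83. The whole-table count after TAC ran from 8 without dKO TAC 3 to 252 without dKO sham 1.

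The interaction, which sets the TAC effect in dKO against the one seen in control (dKO minus control), was called for 0 of the 10 genes and for 0% of all genes by edgeR. At an unadjusted p under 0.05 it held none of the 10 and 4.74% of all genes (697), DESeq2 called 8 genes, none of them among the 10, and limma-voom called 0. SEs of the 10 interaction terms were 0.52 to 1.23, against a median of 0.41 over all genes. The lower means of these genes after TAC in dKO were therefore not shown to differ from the changes in control.

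The 10 genes varied widely between libraries of 1 group. Among 9947 genes averaging 5 CPM or more, the residual SD within groups of log2 CPM had a median of 0.297, and it was 0.805 for Fos, 1.31 for Fosb, 0.798 for Junb and 0.815 for Atf3. Those values lie at the 98.2, 99.7, 98.2 and 98.3 percentiles of these genes. Jun, the steadiest of the 10, had 0.505, the 86.5 percentile. The spread was not alike in the 4 groups: the median SD of the 10 genes was 0.833 in control sham and 0.912 in control TAC, where genes of at least 5 CPM had 0.155 and 0.21, but 0.374 in dKO sham and 0.419 in dKO TAC, where such genes had 0.369 and 0.21. For Fos the SD was 0.994, 1.19, 0.10 and 0.43 in the same order. The medians of the 10 include Egr2 and Egr3, which averaged 4.953 and 2.075 CPM and so lie below the cut of 5 CPM. Egr3 had an SD of 3.121 in dKO sham, where 1 library had no count. Whether spread differed between the genotypes was not tested. Differences between the 4 group means made up a median of 41.9% of the variance over the 12 libraries among all genes tested. The share was higher for Jun (53.5%), Egr1 (51.6%) and Jund (46.8%), and near it for Fosl2 (41.3%) and Junb (39.6%). It was lower for Atf3 (29.8%), Fos (24.2%), Egr3 (12.1%), Fosb (5.3%) and Egr2 (1.1%).

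Particular libraries carried the spread within groups. Control sham 3 and control TAC 3 were above their own group's mean for all 10 genes, and each was among the 2 highest of the 12 libraries for 7 of them. At the other end, control TAC 1 was among the 3 lowest libraries for 7 genes and control TAC 2 for 6. Averaged over the 10 genes, log2 CPM was 7.13 in control sham 3 and 7.25 in control TAC 3, against 5.47 in control sham 1 and 5.34 in control TAC 1, with the 6 dKO libraries between 5.53 and 6.58.

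**Figure D3:**
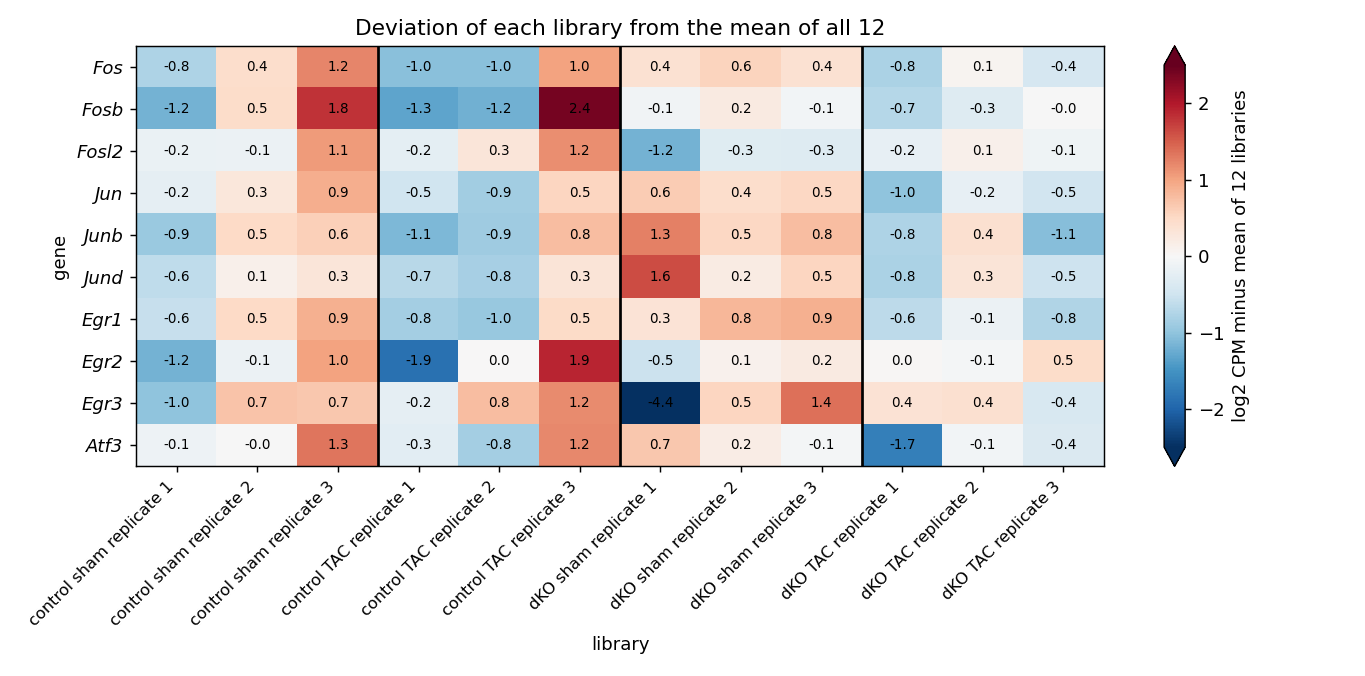
Deviation of log2 CPM from the mean of all 12 libraries for each gene (rows) in each library (columns), in log2 units; red is above and blue below the mean, and black lines separate the 4 groups. The columns of control sham 3 and control TAC 3 are red for all 10 genes, and the value of -4.4 for Egr3 in dKO sham 1 stands for a count of 0 and lies beyond the colour scale.

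Control sham 1 and control sham 3 differed in these genes while all marker sums but that of blood and lymphocytes lay close together. The ratio of library 3 to library 1 ran from 1.92 for Jund to 8 for Fosb and was 3.93 for Fos. Summed markers were 971 against 960.3 CPM for fibroblasts, 1227 against 1234 for endothelial cells and 3227 against 3268 for pericytes and smooth muscle. They were 163.2 against 163.2 for macrophages and 76600 against 76290 for cardiomyocytes, but 36.9 against 75.54 for blood and lymphocytes. Mitochondrial shares were 29.44% and 31.02%. The summed level of 13 heat shock genes, chaperones that handling and warmth can induce, was 3925 against 3359 CPM. Within it Hspa1a had 49.4 against 7.906 CPM and Dnajb1 123 against 29.43 CPM, and Hspa1b had 24.14 against 3.839 CPM. In control TAC 3 the high levels came with a fibroblast marker sum of 8295 CPM, against 1397 and 3405 in its group, and a macrophage sum of 703.7 against 227.7 and 456.7 CPM. Its heat shock sum was 3429 CPM, below the 3874 and 3753 CPM of its group. Within that sum Hspa1a went the other way, with 97.26 CPM against 9.96 and 30.03 CPM. So did Dnajb1, with 96.54 CPM against 29.66 and 42.41 CPM, and Hspa1b had 71.96 CPM against 6.291 and 23.27 CPM. Values of the rest of the 13 genes in these libraries are not given here. The part of time, temperature or handling during isolation was not tested, as the labels give none of these per library.

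Most of the 10 genes varied with Fos over the 12 libraries, whereas Fosl2 and Egr3 followed it little there. Over the 12 libraries, Pearson's r of log2 CPM with Fos was 0.925 for Egr1, 0.915 for Jun, 0.899 for Fosb, 0.878 for Junb, 0.821 for Atf3 and 0.738 for Jund, with Spearman's rho of 0.909, 0.874, 0.937, 0.776, 0.895 and 0.706. Egr2 had r = 0.681, Fosl2 0.354 and Egr3 0.116. Once group means were subtracted, r was 0.836 for Egr2, 0.791 for Fosl2 and 0.303 for Egr3. Between pairs of the 10, r ran from -0.442 (Jund and Egr3) to 0.926 (Junb and Jund). Leaving out control TAC 1 and 2, the libraries farthest from the median of Fos, gave 0.887 for Egr1, 0.898 for Jun and 0.863 for Fosb. In the 6 control libraries r was between 0.614 (Egr3) and 0.987 (Jund), with 0.765 for Fosl2. In the 6 dKO libraries it was 0.961 for Jun and 0.917 for Egr1 but -0.4 for Fosl2, -0.325 for Egr2 and -0.162 for Egr3. These values describe libraries that share an isolation and a sequencing depth each, and they carry no test.

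Among 9695 other genes averaging 5 CPM or more, with predicted gene models and pseudogenes left out by their names, the 10 most like Fos included Zfp36, Btg2, Egr1, Nr4a1, Jun, Sat1, Fosb, Dnajb1 and Dusp1, with r from 0.98 down to 0.891 over 12 libraries. The median over these candidates was -0.009, and 7 genes exceeded 0.9. Zfp36 encodes tristetraprolin, a protein that binds AU-rich messages and speeds their decay. Control sham libraries held 129.3, 326.4 and 432.9 CPM of Zfp36, and control TAC libraries 85.3, 119 and 378.5 CPM. Its dKO values were 279.5, 289.7 and 299 CPM after sham, then 114.1, 192.3 and 151.1 CPM after TAC. Nr4a1, an orphan nuclear receptor of the immediate early class, had 185.5, 248.6 and 450.6 CPM in control sham, then 88.78, 92.62 and 338 CPM in control TAC. Replicate 3 was again the highest control library of its group for both genes.

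**Figure D4:**
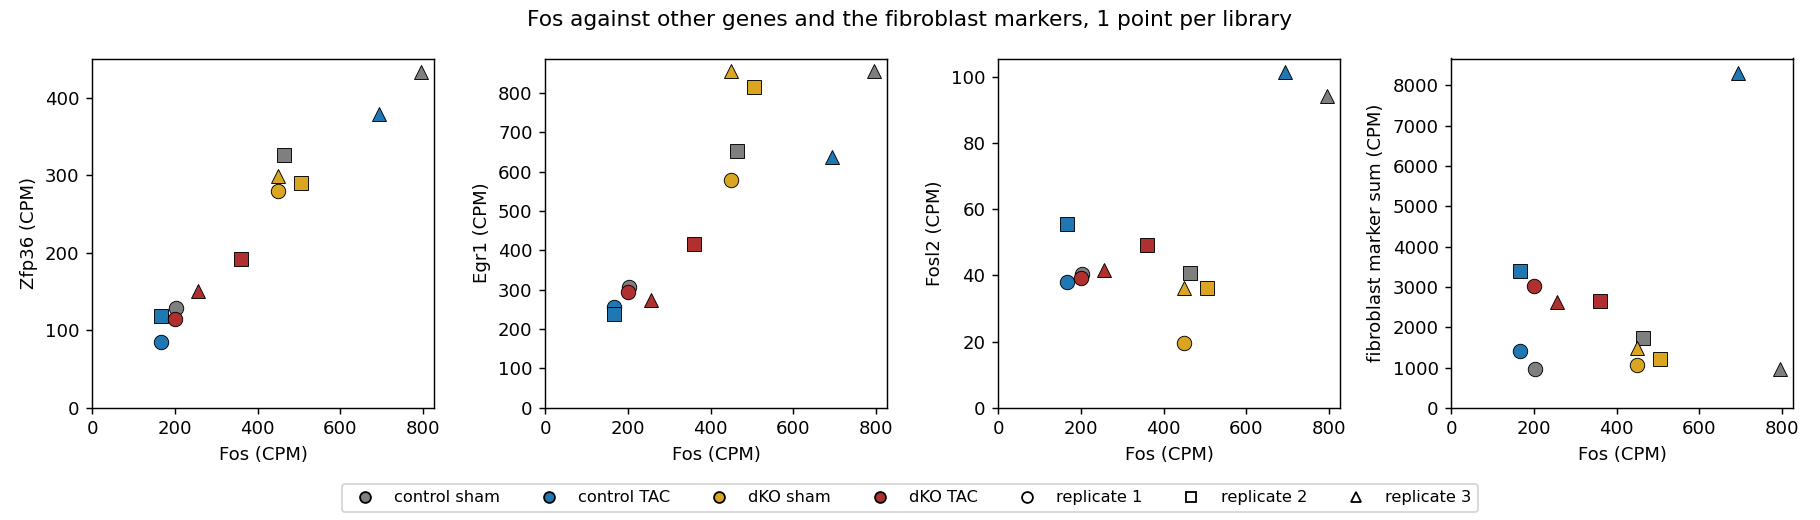
Zfp36, Egr1, Fosl2 and the summed fibroblast markers (vertical axes, CPM) against Fos (horizontal axes, CPM), 1 point per library; colours mark groups and symbols replicates. Zfp36 lies close to a line with Fos (r = 0.98 on log2 CPM). Fosl2 does not over the 12 libraries (0.354, but 0.791 once group means are subtracted). The fibroblast sum is low in control sham 3 (971 CPM) and high in control TAC 3 (8295 CPM), both with high Fos.

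Other gene lists followed Fos to differing degrees once group means were subtracted. The median r with Fos was 0.84 for the other 9 AP-1 and EGR genes, 0.687 for 25 other immediate early transcription factors, 0.638 for 22 immediate early cytoplasmic and secreted genes and 0.478 for 19 feedback regulators. It was 0.18 for 13 heat shock genes, 0.16 for 20 cytoskeletal SRF targets that depend on MRTFs, -0.195 for 21 MAP kinase pathway genes and -0.026 for SRF and its 6 cofactors. Over all 14711 other genes the median was 0.02, and 8.05% exceeded 0.5, as did 17 of the 25 and 17 of the 22. So did 9 of the 19 feedback regulators and 4 of the 13 heat shock genes, with Dnajb1 highest at 0.883. Above 0.5 were also 3 of the 20 cytoskeletal targets, 1 of the 21 MAP kinase pathway genes and 0 of SRF and its cofactors. Medians were 0.202 for 15 AP-1 and EGR target genes, 0.205 for 20 other bZIP (leucine zipper) partners and 0.284 for 2 co-repressors of EGR proteins. In these 3 lists 2, 4 and 0 genes exceeded 0.5. Marker lists had medians of 0.47 for fibroblasts, 0.472 for macrophages, 0.201 for endothelial cells and -0.297 for cardiomyocytes. Of 10 markers in each of these, 4, 3, 1 and 0 exceeded 0.5. The median was 0.098 for 10 pericyte and smooth muscle markers (1 over 0.5) and 0.2 for 7 blood and lymphocyte markers (0 over 0.5). The lists were chosen with earlier results of these data known, and these medians are descriptions.

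Upstream of the 10 genes, Mkl1 was the one gene called among SRF and its cofactors (Srf, Elk1, Elk3, Elk4, Mkl1, Mkl2, Myocd), 1 of 7 lower in dKO both after sham and after TAC. DESeq2 called 1 and 2 of the 7 in these comparisons, and limma-voom 0 and 1. Its dKO effect was -1.75 ± 0.27 after sham (adjusted p = 0.0409, edgeR with Benjamini-Hochberg adjustment) and -2.42 ± 0.27 after TAC (adjusted p = 0.00182). The call after TAC held on leaving out any 1 library. The call after sham was lost on leaving out any library but control TAC 1, with log2 changes of -1.87 to -1.58 and adjusted p of at most 0.1602. Srf itself had 87.46, 89.55 and 113.6 CPM in control sham, and the TAC libraries of control mice held 104.5, 98.56 and 80.84 CPM. In dKO mice Srf had 85.22, 63.71 and 64.34 CPM after sham but 52.09, 59.61 and 54.41 CPM after TAC. After TAC all 3 dKO libraries lay below all 3 control libraries, with a log2 difference of -0.77 ± 0.18 and adjusted p = 0.101 by edgeR with Benjamini-Hochberg adjustment, which is not a call. None of 21 MAP kinase pathway genes was called in any of the 5 comparisons by this test, and their median log2 change lay between -0.13 and 0.07. At an unadjusted p under 0.05 there were 1 to 4 of them in a comparison, DESeq2 called 3 for TAC in dKO and 1 for dKO after TAC, and limma-voom called 0.

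Among 22 immediate early cytoplasmic and secreted genes, Arc stood out by genotype. Arc, known from neurons as a gene that SRF and MAP kinase signalling switch on, had 1.919, 8.219 and 18.04 CPM in control sham, then 2.733, 6.476 and 6.919 CPM in control TAC. In dKO it had 185.7, 119.9 and 81.58 CPM after sham and 36.13, 121.1 and 107.8 CPM after TAC. All 6 dKO libraries were above all 6 control libraries. The dKO effect was 4.04 ± 0.72 after TAC (adjusted p = 0.0374, edgeR with Benjamini-Hochberg adjustment), the 1 call in this list there, and 3.77 ± 0.71 after sham (adjusted p = 0.0922), which was not called. The call after TAC was lost on leaving out control sham 2, dKO sham 2 or any of the 6 TAC libraries, with log2 changes of 3.72 to 4.42 and adjusted p of at most 0.1632. Fos, at 448.7 to 504.1 CPM in dKO sham and 202.3 to 795.2 CPM in control sham, showed no such separation by genotype.

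**Figure D5:**
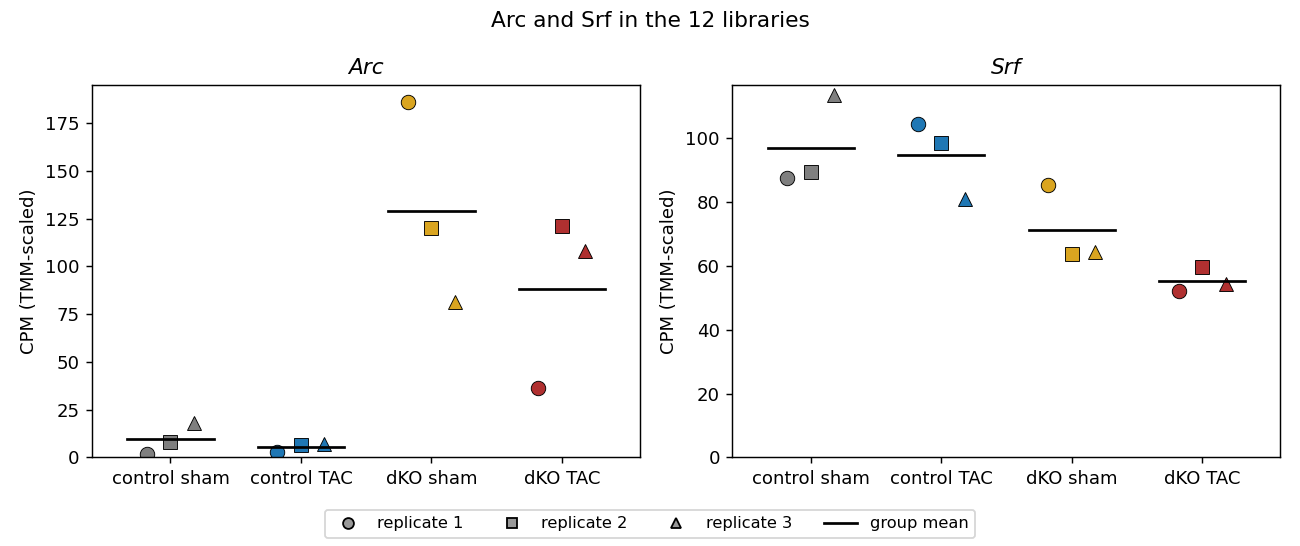
Arc (left) and Srf (right) in the 12 libraries in CPM, by group, with symbols for the replicate and lines for the group mean. Arc lies at 1.919 to 18.04 CPM in the 6 control libraries and at 36.13 to 185.7 CPM in the 6 dKO libraries, and Srf is lowest in the 3 dKO TAC libraries, at 52.09 to 59.61 CPM.

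A few genes of related classes were called after TAC, where edgeR called 2.25% of all genes in control and 7.39% in dKO. Hbegf, an EGF receptor ligand, rose in both genotypes, by 1.39 ± 0.29 in control (adjusted p = 0.0321) and 1.57 ± 0.29 in dKO (adjusted p = 0.0105, both edgeR with Benjamini-Hochberg adjustment). It was 1 of 22 cytoplasmic and secreted genes called in control, and in dKO 2 were called higher and 1 lower: Ctgf, a matricellular protein, rose by 2.81 ± 0.57 and Gadd45a, a growth arrest gene, fell by 1.75 ± 0.41 on the log2 scale. Of 25 other immediate early transcription factors none was called in control and Id1, an inhibitor of helix-loop-helix factors, fell in dKO (-1.43 ± 0.39). Of 20 other bZIP partners none was called in control, and in dKO Mafk rose (0.88 ± 0.21) and Ddit3 (CHOP) fell (-1.71 ± 0.44). Ddit3 had 210.5 CPM in dKO sham 1 against 68.53 and 51.09 in the other two, and its change was -0.83 without that library. Of 19 feedback regulators, Zfp36 and Dusp1 among them, none was called in any of the 5 comparisons, with medians of -0.18 to 0.04. An unadjusted p under 0.05 was reached by 0 to 3 of them in a comparison, and DESeq2 called 1 for TAC in each genotype and limma-voom 0. For TAC in control, 1 of the 25 transcription factors and 1 of the 20 bZIP partners had an unadjusted p under 0.05, and DESeq2 called 1 and 0 of these lists and limma-voom 0.

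Several of these calls rested on single libraries. Hbegf in control was lost without control sham 1, 2 or 3, control TAC 2 or 3, or dKO TAC 1 (1.11 to 1.63 over all 12 omissions). In dKO, Ctgf was lost without dKO TAC 1 (2.60 to 3.14), and Gadd45a without dKO sham 1, dKO TAC 1 or dKO TAC 3 (-1.996 to -1.129). Mafk was lost without dKO sham 1 or 2 or dKO TAC 1 or 3 (0.76 to 1.05). Id1 was lost without control sham 3, control TAC 2, dKO sham 1 or 3, or dKO TAC 1 or 3 (-1.95 to -1.15), and Ddit3 without control sham 1 or 3, dKO sham 1, or any dKO TAC library (-2.06 to -0.83). Each range is of the log2 change on leaving out 1 library at a time.

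Among 13 heat shock genes none was called for TAC in control by edgeR, DESeq2 or limma-voom (1 had an unadjusted p under 0.05), and Hsp90aa1 (1.09 ± 0.24) and Dnajb4 (1.02 ± 0.23), both chaperones, rose in dKO. Both calls were lost without dKO TAC 1 or dKO TAC 3, at log2 changes of 0.89 to 1.26 and 0.83 to 1.19 over the 12 omissions. Of the listed co-repressors of EGR proteins, Nab1 and Nab2 were tested and not called in any comparison by these tools, nor under an unadjusted p of 0.05, and Egr4 was too low to be tested.

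Downstream, 15 genes known as targets of AP-1 or EGR proteins held 5 called higher and none lower after TAC in each genotype, against 1.9% and 4.2% of all genes called higher. Their median log2 change was 1.10 in control and 0.79 in dKO, against 0.00 and -0.01 over all genes. This list was chosen with earlier results of these data known, so its shares and medians are descriptions. Among the AP-1 and EGR genes themselves, Fos, Jun, Junb, Jund, Egr1 and Atf3 had negative estimates in both. Those of Fosl2 and Egr2 were positive in both, and those of Fosb and Egr3 positive in control and negative in dKO. Rcan1, a calcineurin inhibitor, rose by 1.78 ± 0.31 in control and 2.61 ± 0.32 in dKO. Timp1, an inhibitor of metalloproteinases, rose by 4.08 ± 0.80 and 4.24 ± 0.80. Spp1 (osteopontin) lay at or under 0.3597 CPM in every sham library and at 0.7115 to 11.55 CPM in the TAC libraries, so no fold is given, and it was called in both genotypes. The 3 calls in control were lost without control sham 1, control sham 3 or control TAC 2, and that of Timp1 also without control TAC 3, with log2 changes of 1.30 to 2.03 for Rcan1 and 3.70 to 4.94 for Timp1. In dKO the 3 calls held on leaving out any 1 library. In the same comparisons 4 of 10 fibroblast markers were called higher in each genotype, and their part in these target genes was not tested. For dKO against control, none of the 15 was called after sham or after TAC, where 2 and 3 had an unadjusted p under 0.05 and DESeq2 called 0 and 1.

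The list of 20 cytoskeletal SRF targets that depend on MRTFs was also chosen with earlier results known, so its shares are descriptions. Its median log2 changes after TAC were 0.85 in control and 0.65 in dKO. Of the 20 genes, 5 were called higher after TAC in control and 3 in dKO, against 1.9% and 4.2% of all genes. They included Acta1, skeletal alpha actin, at 3.597 ± 0.547 and 3.82 ± 0.56, the stretch-responsive nuclear protein gene Ankrd1 at 1.75 ± 0.30 and 3.40 ± 0.32, and the LIM protein gene Fhl1 at 1.495 ± 0.298 and 1.31 ± 0.30. In dKO against control Acta1 was lower after sham (-4.50 ± 0.58) and after TAC (-4.28 ± 0.57), and Cnn2, a calponin, was lower after TAC (-1.56 ± 0.28). All of these were called by edgeR with Benjamini-Hochberg adjusted p of 0.000416 to 0.0376. Calls in control were lost without control sham 1, control sham 3 or control TAC 2 for Acta1, Ankrd1 and Fhl1, and for Fhl1 also without control sham 2. Fhl1 in dKO was lost without dKO sham 2 or dKO TAC 1 or 2, Acta1 in dKO against control without dKO sham 1 or 2 (after sham) or dKO TAC 3 (after TAC), and Cnn2 without any of 9 libraries, all but control sham 2, dKO sham 1 and dKO TAC 2. Over these omissions Acta1 kept log2 changes of -5.02 to -3.91 after TAC and -4.73 to -4.00 after sham. None of these lists had an interaction called by edgeR, DESeq2 or limma-voom, and each held 0 to 3 genes under an unadjusted p of 0.05.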

How the data were processed

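The authors deposited raw read counts per gene, whole numbers for 49568 genes in 12 libraries, of which 21344 were at 0 throughout. Per the labels' protocols, 200 ng of RNA entered a stranded poly(A) kit, and single reads of 100 nt were made. Trimmomatic 0.36, STAR 2.5.2b, Subread 1.5.0p3 and featureCounts were used with GRCm38.p5, per the submitters' processing notes. Settings and annotation: not given in the sources used here.

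The counts were tested as deposited with edgeR 4.0.16 in R 4.3.3 by its quasi-likelihood F test: TMM scaling, filterByExpr by group, 1 fit of all 12 libraries with 4 group means (8 residual degrees of freedom), and Benjamini-Hochberg adjustment over 14712 genes, called under 0.05. The SE is the log2 change divided by the root of F. Log2 CPM used a prior count of 2. Alternatives were DESeq2 1.42.0 with its size factors, limma-voom (limma 3.58.1), other filters, a fit of 2 groups, the replicate number as a block, and leaving libraries out. The alternatives for list genes, and leaving out both libraries with low mitochondrial shares for them, were added after seeing the data. Steps were tested on simulated counts. No 2 libraries of a group were duplicates.

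The 10 genes are named in every comparison, and of each other list up to 3 called genes with the smallest p. Srf, Zfp36, Nr4a1, Hspa1a, Hspa1b, Dnajb1, and Arc after sham, were named after their values were seen. Of the 10 genes most like Fos, 1 is not reported here. The 10 genes and the lists were chosen with earlier results of these data known. Figures were drawn with matplotlib 3.10.9 (Python 3.11.15).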

Additional observations from a re-analysis of the deposited data

How the results depend on the processing

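None of the 10 genes passed the threshold in the reported test, and of 600 log2 changes with 1 library left out, 40 turned sign, none of them called, and 1 became a call (Jun for TAC in dKO). Of 390 log2 changes under the other alternatives 15 turned sign and 6 became calls, all 6 for TAC in dKO. DESeq2 called 3 of the 10 genes there, as did edgeR with no filter on low counts, and leaving out 1 library called 0 to 1. Over all genes, DESeq2 called 1022 (TAC in control), 2381 (TAC in dKO), 64 (dKO after sham), 321 (dKO after TAC) and 8 (interaction). With no filter on low counts the counts were 936 for TAC in control, 1545 for TAC in dKO, 53 and 129 for dKO after sham and after TAC, and 5 for the interaction. A fit of only the compared groups called 2, 647 and 5 genes for TAC in control, TAC in dKO and dKO after sham, and cannot be made for the interaction. Limma-voom called 175 for TAC in control. Leaving out libraries gave 2 to 1130, 210 to 1580, 5 to 12, 8 to 508 and 0 to 2 genes in the order above, and the fits with fewer libraries test with less power.

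Limma-voom turned the sign for Fosb in TAC in control (-0.404), Egr3 in TAC in dKO (0.99), Fos, Egr2 and Egr3 in dKO after sham (0.159, 0.045 and -0.999), Egr2 in dKO after TAC (0.076), and Fosb, Egr2 and Egr3 in the interaction (0.03, 0.031 and 0.542). Genes whose sign turned on leaving out libraries had these lowest and highest log2 changes. For TAC in control: Fos -1.54 to 0.041, Fosb -2.09 to 1.16, Fosl2 -0.32 to 0.68, Egr2 -0.82 to 1.34, Egr3 -0.022 to 0.68 and Atf3 -1.08 to 0.36. For TAC in dKO: Egr2 -0.016 to 0.33 and Egr3 -1.01 to 0.54. For dKO after sham: Fos -0.43 to 0.49, Fosb -1.26 to 0.17, Jun -0.088 to 0.49, Egr1 -0.007 to 0.65, Egr2 -0.58 to 0.56, Egr3 -0.68 to 0.71 and Atf3 -0.52 to 0.36. For dKO after TAC: Fos -0.66 to 0.72, Fosb -1.83 to 0.96, Jun -0.63 to 0.15, Junb -0.76 to 0.69, Jund -0.35 to 0.52, Egr1 -0.44 to 0.42 and Egr2 -1.11 to 0.83. For the interaction: Fos -0.82 to 0.76, Fosb -1.51 to 1.75, Fosl2 -0.18 to 0.82, Egr1 -0.88 to 0.10, Egr2 -1.16 to 1.01, Egr3 -1.38 to 0.16 and Atf3 -1.23 to 0.22. The cause of these turns was not tested.

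The replicate block, the fit with the replicate number as a term, called 0 of the 10 genes in all 5 comparisons and 252, 937, 10, 41 and 0 of all genes. It turned the sign for Fosb in TAC in control (-0.158), Egr3 in TAC in dKO (0.253) and Fos, Egr2 and Egr3 in dKO after sham (0.19, 0.062 and -0.039). Over all genes, same-numbered libraries did not deviate together throughout, so the numbers were not taken as pairs. The correlation was over 0.1 in 9 of 18 pairs, from -0.474 to 0.35. Over the 10 genes alone it ran from -0.746 (dKO sham 1 with dKO TAC 1) to 0.899 (control sham 3 with control TAC 3). It was 0.668 for control sham 1 with control TAC 1 and -0.47 for dKO sham 3 with dKO TAC 3. Whether libraries of the same number shared a batch was not tested. Depth limits the value of Egr3 in dKO sham 1, where no read was counted and 3 counts are 0.184 CPM.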
